A study of Mus musculus with 16 samples.

Results

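The 44 genes described here are the Wnt ligands, their receptors and their secreted antagonists that the array table names with a single symbol, out of 22180 genes tested. They were taken by symbol alone: 19 Wnt ligands, 10 Frizzled (Fzd) receptors, 4 secreted Frizzled-related proteins (Sfrp), 4 Dickkopf (Dkk) antagonists, 4 R-spondins (Rspo) and 3 Lgr receptors. The family has 46 entries in the table because Lgr5 and Sfrp2 have 2 each, and the entry with the higher mean was used. All 44 have a RefSeq record under the Entrez number that the array annotation gives.

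The study used 16 Affymetrix Mouse Gene 2.1 ST arrays, whose probes lie along whole transcripts, in 6 groups. All cells came from the mouse embryonic stem cell line iGPA-Myo7a:mVenus, which carries the hair cell transcription factors Gfi1, Pou4f3 and Atoh1 under control of doxycycline (Dox) and the fluorescent protein mVenus as a Myo7a reporter. The cells grew as floating embryoid bodies (EBs), balls of differentiating stem cells. EBs given Dox, or Dox with retinoic acid (RA), from day 4 on were dissociated with trypsin and sorted for mVenus at day 8 or day 12, after 4 or 8 days of treatment, with 3 arrays in each of these 4 groups. The sorted cells are called iHCs (induced hair cell-like cells). Control EBs of the same line and the same days had neither Dox nor RA and were not sorted, with 2 arrays at each day. Treatment and sort therefore cannot be told apart in any difference between iHCs and control EBs. Every group shares a single cell line.

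Wnt proteins are secreted, lipid-modified ligands that bind Frizzled receptors, which work in the canonical branch with the coreceptors Lrp5 and Lrp6 to stabilise beta-catenin, the partner of the TCF/LEF transcription factors. Sfrp proteins bind Wnts outside the cell, Dkk proteins act on the Lrp coreceptors, and R-spondins act through Lgr receptors to keep Frizzled at the cell surface by removing the ubiquitin ligases Rnf43 and Znrf3. In the inner ear the canonical branch acts in otic and progenitor growth, Lgr5 marks supporting cells with progenitor capacity, and Fzd3 and Fzd6 act in the planar cell polarity branch that orients hair bundles.

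All values below are log2 signal after RMA, the Affymetrix background correction, quantile normalization and probe summary, and a difference of 1 is a change of 2-fold. Differences carry the standard error (SE) of limma, a linear model fitted to all genes. Calls were made at an adjusted p under 0.05, with Benjamini-Hochberg adjustment over the 22180 genes in each contrast. Only called genes are said to be higher or lower, or to rise or fall. Probe sets differ in brightness, so levels are not compared between genes. The arrays had medians from 4.67 to 4.82, and replicates of a group correlated at 0.982 to 0.995. A list of 15 hair cell markers, which holds the reporter gene and the induced factors among others, had a mean level of 4.97 to 5.21 on the control EB arrays and 8.11 to 8.96 on the iHC arrays. A list of 19 mesenchyme and neural crest markers went the other way, from 7.68 to 8.13 on control EB arrays against 4.86 to 5.48 on iHC arrays. A list of 14 cell cycle genes ran from 8.49 to 8.95 on control EB arrays and from 5.54 to 7.31 on iHC arrays.

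A set of 5 regulatory stretches is shown for members on which the results turn: the 250 bases before the start of Sfrp2 and Dkk2, which fell far in iHCs, of Fzd9 and Lgr6, which rose, and of Dkk1, which is known as a target of beta-catenin. They were taken from RefSeq promoters of build GRCm38.p6 and run 5′ to 3′ along the gene. Capitals mark matches to CAGCTG or CAGATG, core forms of the E-box bound by factors of the Atoh1 class, or to CTTTGA, the core of TCF/LEF motifs, on either strand. In the stretches shown no match overlaps another.
Sfrp2 (chr3:83766071-83766320, plus strand): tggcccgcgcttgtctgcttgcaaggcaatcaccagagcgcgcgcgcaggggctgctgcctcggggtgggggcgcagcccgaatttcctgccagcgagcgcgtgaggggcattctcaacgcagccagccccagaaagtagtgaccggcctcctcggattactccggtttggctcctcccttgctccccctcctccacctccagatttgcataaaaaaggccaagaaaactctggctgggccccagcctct
Dkk2 (chr3:132085042-132085291, plus strand): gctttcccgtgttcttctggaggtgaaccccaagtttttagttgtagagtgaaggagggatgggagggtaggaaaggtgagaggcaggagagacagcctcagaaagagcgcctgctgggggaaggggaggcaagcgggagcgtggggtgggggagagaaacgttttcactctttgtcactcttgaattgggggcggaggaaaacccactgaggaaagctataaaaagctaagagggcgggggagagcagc
Dkk1 (chr19:30549497-30549746, minus strand): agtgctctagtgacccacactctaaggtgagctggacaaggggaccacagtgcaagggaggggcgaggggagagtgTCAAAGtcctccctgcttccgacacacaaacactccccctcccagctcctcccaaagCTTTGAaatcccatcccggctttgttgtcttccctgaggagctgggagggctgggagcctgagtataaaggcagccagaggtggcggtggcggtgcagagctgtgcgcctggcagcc
Fzd9 (chr5:135251048-135251297, minus strand): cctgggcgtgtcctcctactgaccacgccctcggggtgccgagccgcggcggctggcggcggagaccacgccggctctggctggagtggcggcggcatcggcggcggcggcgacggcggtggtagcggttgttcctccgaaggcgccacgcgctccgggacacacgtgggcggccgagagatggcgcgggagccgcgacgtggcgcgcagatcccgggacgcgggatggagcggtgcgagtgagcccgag
Lgr6 (chr1:135105277-135105526, minus strand): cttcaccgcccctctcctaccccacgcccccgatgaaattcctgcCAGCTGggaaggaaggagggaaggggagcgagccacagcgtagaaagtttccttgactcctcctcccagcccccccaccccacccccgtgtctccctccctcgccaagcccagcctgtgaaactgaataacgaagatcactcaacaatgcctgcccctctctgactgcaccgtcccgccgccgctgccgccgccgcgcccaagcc
Dkk1 has CTTTGA 117 to 112 bases before the start and its reverse complement at 174 to 169 bases. Lgr6 has CAGCTG at 205 to 200 bases, and the other 3 stretches hold none of the motifs in these 250 bases. RefSeq promoters were given for 29 members, 32 promoters in all. CAGCTG was in 3 of the 32, CAGATG in 2 and CTTTGA in 4, while 13.0%, 14.4% and 13.8% of all 32851 promoters of the same length held them. The G and C content of the 5 stretches was 63.6% for Sfrp2, 55.6% for Dkk2, 60.8% for Dkk1, 76.4% for Fzd9 and 65.2% for Lgr6, against a median of 52.4% over all promoters.

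The first question was how the family stood in iHCs against control EBs of the same day. At day 8, Dox iHCs had 7 members higher and 18 lower, with Sfrp1, Sfrp2, Dkk2, Rspo3 and Wnt2 the farthest down and Fzd9, Lgr5, Fzd3 and Wnt10a the farthest up. At day 12 the counts were 7 higher and 19 lower. Dox+RA iHCs had 6 higher and 20 lower at day 8 and 6 higher and 19 lower at day 12. Of all genes tested, 15.7% were higher and 18.9% lower with Dox at day 8 (34.6% called), and 19.2% were higher and 21.7% lower at day 12 (40.8% called). With Dox+RA, 19.6% of all genes were higher and 22.0% lower at day 8 (41.6% called), and 22.4% were higher and 22.4% lower at day 12 (44.8% called). The members called made up 56.8%, 59.1%, 59.1% and 56.8% of the 44 in the same order. The share of members that were lower thus stood above that of all genes, while the share that were higher was close to it with Dox at day 8 and below it in the other contrasts. The median member difference was -0.16 and -0.35 with Dox at day 8 and day 12 and -0.16 and -0.33 with Dox+RA, beside 0.02, 0.02, 0.05 and 0.07 over all genes. The Dox and Dox+RA contrasts of a day use the same 2 control arrays.

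**Figure D1:**
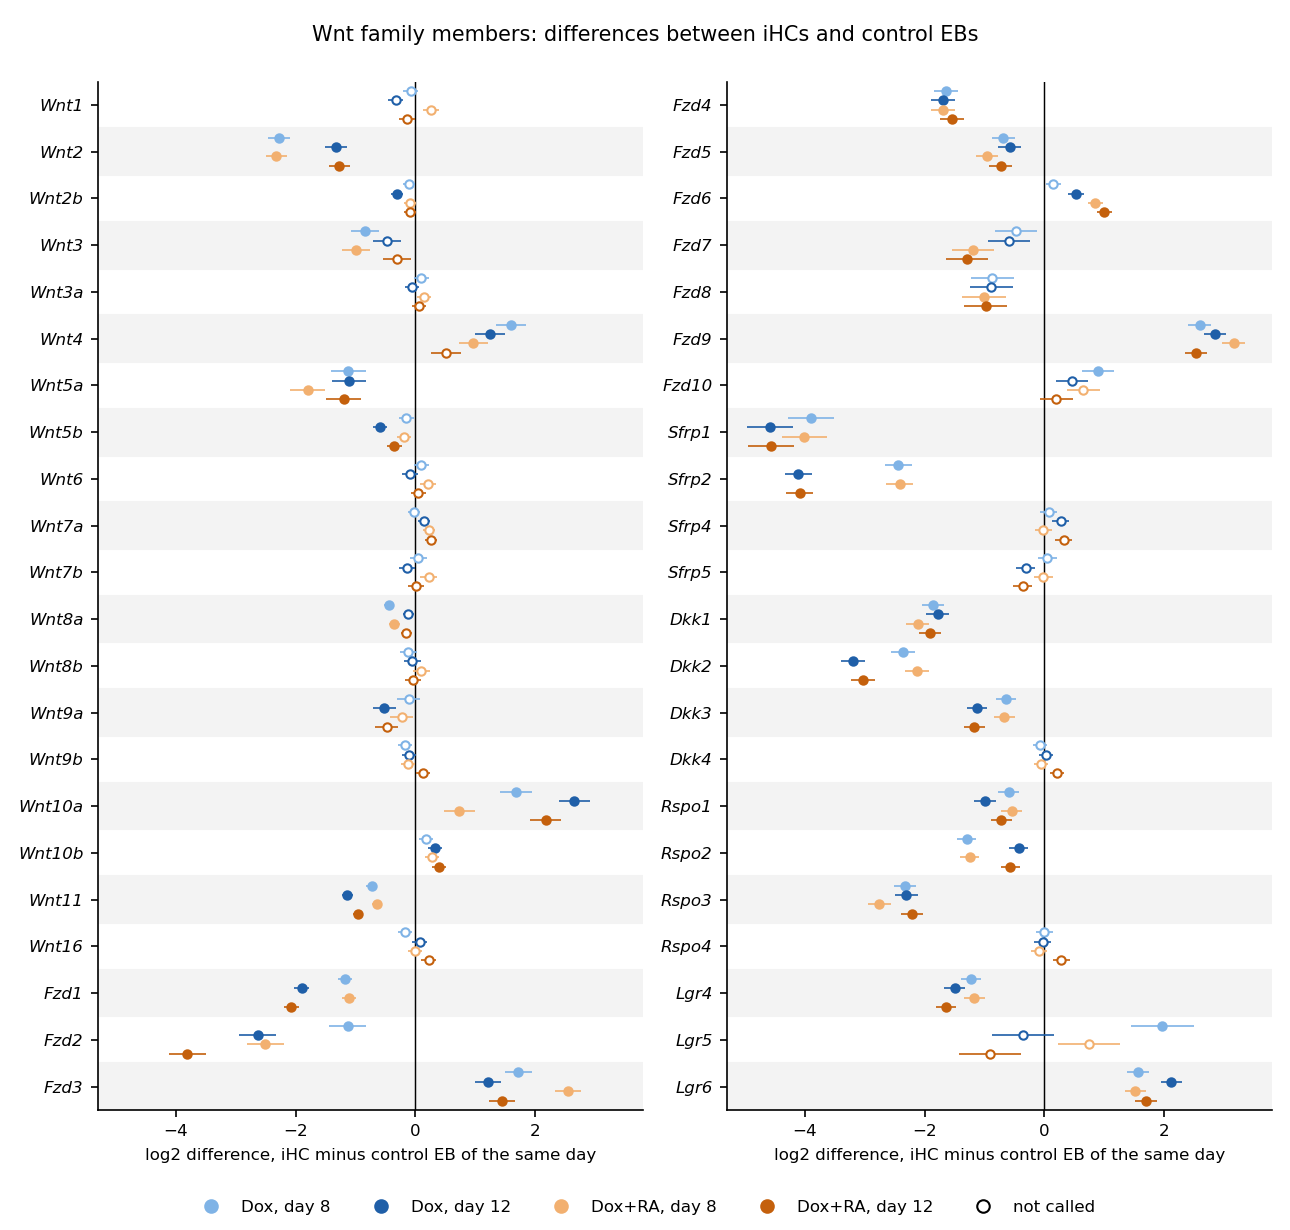
Log2 difference between iHCs and control EBs of the same day for each of the 44 members, with bars of 1 SE; filled points were called by limma and open points were not. Blue is Dox and orange is Dox+RA, light at day 8 and dark at day 12, and Sfrp1 lies farthest to the left and Fzd9 farthest to the right.

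The count of lower members came from every role, and most fully from the secreted antagonists and the R-spondins. Both Sfrp1 and Sfrp2, 3 of 4 Dkk genes and 3 of 4 R-spondins were lower in each of these contrasts, and no gene of these 3 roles was higher. Among the 19 Wnt ligands, 2 were higher and 5 lower at day 8 and 3 higher and 6 lower at day 12 with Dox. The Dox+RA counts were 2 higher and 5 lower, then 2 higher and 4 lower. In either direction, 36.8% and 47.4% of the ligands were called with Dox, beside 34.6% and 40.8% of all genes. The Dox+RA shares were 36.8% and 31.6%, below the 41.6% and 44.8% of all genes. An excess of lower members within the ligands alone was not tested. Among the 10 Frizzled receptors, 3 were higher and 4 lower with Dox at either day, and 3 higher and 6 lower with Dox+RA. In all, 12 members were called in none of the contrasts of the study: Wnt1, Wnt3a, Wnt6, Wnt7a, Wnt7b, Wnt8b, Wnt9b, Wnt16, Sfrp4, Sfrp5, Dkk4 and Rspo4. Their array values ran from 3.45 (Wnt16) to 5.36 (Wnt9b), and their differences between iHCs and control EBs from -0.36 (Sfrp5, Dox+RA at day 12) to 0.32 (Sfrp4, the same contrast). Over the 6 groups 14 members, 10 of them Wnt ligands, had no group mean of 5 or more, and 5 of the 14 were called in at least 1 of the contrasts with control EBs. Of the other 30 members 27 were. Of all 22180 genes tested, 13425 had a group mean of 5 or more. The like counts of calls over all genes are not given here, so these counts do not set the family apart. A member could also reach a mean of 5 only through the group where it was high. The table has no detection calls, so a low value does not say that a transcript was absent.

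Among the ligands, Wnt10a and Wnt4 were higher in iHCs and Wnt2, Wnt5a and Wnt11 were lower. Wnt10a is a ligand of the canonical branch with roles in skin and teeth. Wnt10a read 5.54 and 5.52 in control EBs of day 8 and 5.07 and 5.21 in those of day 12. Wnt10a in iHCs was 7.10, 7.59 and 6.93 with Dox and 6.08, 6.28 and 6.42 with Dox+RA at day 8, and 7.83, 8.30 and 7.25 with Dox and 6.93, 7.37 and 7.67 with Dox+RA at day 12. Every iHC array of Wnt10a lay above the control EB arrays of its day, and the Dox+RA arrays of day 8 were the lowest of the iHCs. Wnt10a differed from control EBs of the same day by 1.68 and 2.65 with Dox at day 8 and day 12 and by 0.73 and 2.18 with Dox+RA (SE 0.26, adjusted p from 1.0e-06 to 0.038). The call for Dox+RA at day 8 was lost without any 1 of 4 arrays: control EB day 8 replicate 1 (adjusted p = 0.12) or 2 (0.14), or Dox+RA day 8 replicate 2 (0.078) or 3 (0.1). Wnt6, the gene next to Wnt10a on chromosome 1 in the RefSeq table, was called in no contrast.

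Wnt4, a ligand known from kidney and gonad development, was higher in 3 of the contrasts with control EBs. Wnt4 measured 5.32 and 5.39 in control EBs of day 8 and 5.73 and 5.70 in those of day 12. Wnt4 in iHCs was 7.37, 6.86 and 6.64 with Dox and 6.23, 6.40 and 6.34 with Dox+RA at day 8, and 6.47, 6.92 and 7.48 with Dox and 6.12, 6.01 and 6.57 with Dox+RA at day 12. The lowest iHC value of Wnt4 at each day lay above both control EB arrays of that day. Wnt4 differed from control EBs of the same day by 1.60 (adjusted p = 1.1e-04) and 1.24 (adjusted p = 8.0e-04) with Dox at day 8 and day 12 and by 0.97 (adjusted p = 0.0052) and 0.51 (adjusted p = 0.11, not called) with Dox+RA (SE 0.25). Wnt10b showed small rises at day 12, of 0.33 with Dox (adjusted p = 0.043) and 0.39 with Dox+RA (adjusted p = 0.016). Both Wnt10b calls were lost without either control EB array of day 12 (adjusted p from 0.064 to 0.16), without Dox day 12 replicate 1 (0.18) for the first, and without Dox+RA day 12 replicate 3 (0.055) for the second. The first Wnt10b call also moved to adjusted p from 0.05 to 0.053 without any 1 of 7 arrays of other groups, and to 0.14 in a fit of these groups alone.

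Wnt2 has been studied chiefly in lung, heart and placental vessels. Wnt2 stood at 6.83 and 6.51 in control EBs of day 8 and 5.41 and 6.09 in those of day 12. Wnt2 in iHCs was 4.27, 4.28 and 4.63 with Dox and 4.24, 4.30 and 4.52 with Dox+RA at day 8, and 4.52, 4.25 and 4.50 with Dox and 4.35, 4.52 and 4.57 with Dox+RA at day 12. Control EB values of Wnt2 were highest at day 8, and no iHC array reached a control EB array. Wnt2 differed from control EBs of the same day by -2.28 and -1.33 with Dox at day 8 and day 12 and by -2.32 and -1.27 with Dox+RA (SE 0.18, adjusted p from 8.1e-08 to 3.1e-05).

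Wnt5a is the main ligand of the non-canonical branch and works through Ror receptors. Wnt5a read 5.99 and 6.41 in control EBs of day 8 and 5.79 and 5.69 in those of day 12. Wnt5a in iHCs was 4.58, 5.01 and 5.65 with Dox and 3.98, 4.52 and 4.69 with Dox+RA at day 8, and 4.20, 4.69 and 5.00 with Dox and 4.33, 4.48 and 4.80 with Dox+RA at day 12. Wnt5a was below the control EBs on each iHC array, and replicate 3 was the highest in all iHC groups. Wnt5a differed from control EBs of the same day by -1.12 and -1.11 with Dox at day 8 and day 12 and by -1.80 and -1.20 with Dox+RA (SE 0.29, adjusted p from 1.2e-04 to 0.0068). Without control EB day 8 replicate 2 the Dox difference of Wnt5a at day 8 was -0.91 (adjusted p = 0.094).

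Wnt11, a second non-canonical ligand, moved less but with little spread. Wnt11 measured 5.66 and 5.76 in control EBs of day 8 and 6.20 and 6.02 in those of day 12. Wnt11 in iHCs was 4.97, 4.98 and 5.00 with Dox and 5.09, 5.04 and 5.09 with Dox+RA at day 8, and 5.06, 4.90 and 4.95 with Dox and 5.10, 5.05 and 5.28 with Dox+RA at day 12. The iHC arrays of Wnt11 all lay between 4.90 and 5.28. Wnt11 differed from control EBs of the same day by -0.73 and -1.14 with Dox at day 8 and day 12 and by -0.64 and -0.96 with Dox+RA (SE 0.09, adjusted p from 1.4e-07 to 4.9e-05).

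Other ligands were lower by less than 2-fold. Wnt3 was lower at day 8 with Dox, by -0.84 ± 0.23 (adjusted p = 0.0092), and with Dox+RA, by -0.99 ± 0.23 (adjusted p = 0.0023); without control EB day 8 replicate 2, which read 5.01 against 4.08 in replicate 1, these were -0.37 (adjusted p = 0.26) and -0.52 (adjusted p = 0.081). Wnt8a was lower at day 8 by -0.44 ± 0.09 (adjusted p = 0.0012) with Dox and by -0.35 ± 0.09 (adjusted p = 0.0053) with Dox+RA, the latter at adjusted p = 0.052 without control EB day 8 replicate 1. Wnt5b was lower at day 12 by -0.59 ± 0.12 (adjusted p = 0.0012) with Dox and by -0.35 ± 0.12 (adjusted p = 0.034) with Dox+RA. The Dox+RA call of Wnt5b was lost without either control EB array of day 12 (adjusted p = 0.087 and 0.16) or Dox+RA day 12 replicate 1 (0.087) or 2 (0.1), and under median centring (0.064). Wnt9a was lower at day 12 with Dox by -0.52 ± 0.19 (adjusted p = 0.04) and Wnt2b by -0.31 ± 0.10 (adjusted p = 0.025). Both were lost without either control EB array of day 12, with adjusted p from 0.085 to 0.18, and under median centring of the arrays (0.061 for Wnt9a and 0.054 for Wnt2b). Wnt9a was also lost when the arrays were quantile normalized again (0.062). Leaving out Dox day 12 replicate 2 (0.15) or replicate 2 of Dox+RA at day 8 or day 12 (0.051) also ended the call of Wnt9a, and leaving out Dox day 12 replicate 1 (0.068) that of Wnt2b.

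**Figure D2:**
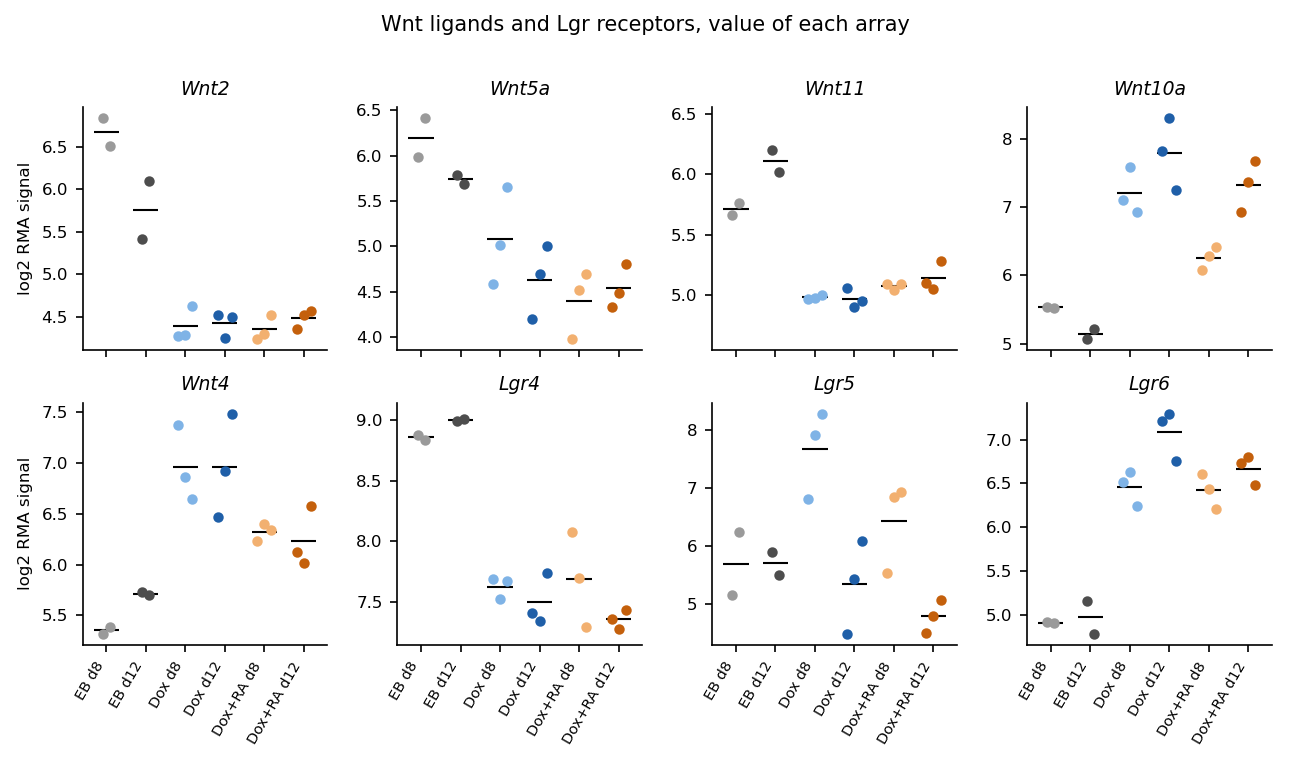
Log2 RMA signal on each array (points) and group mean (line) for 5 Wnt ligands and the 3 Lgr receptors in the 6 groups; each panel has its own axis, which does not start at 0. Wnt2, Wnt5a, Wnt11 and Lgr4 sit lower on all iHC arrays, Wnt10a, Wnt4 and Lgr6 sit higher, and Lgr5 is spread widely within the Dox groups.

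The Frizzled receptors split in both directions: Fzd3 and Fzd9 were higher, Fzd1, Fzd2, Fzd4 and Fzd5 lower in all contrasts with control EBs, and Fzd6, Fzd7, Fzd8 and Fzd10 were called in some of them. Fzd9, whose promoter is printed above, is a Frizzled of neural and muscle tissue and had the largest rise of the family. Fzd9 stood at 5.05 and 4.98 in control EBs of day 8 and 4.94 and 4.55 in those of day 12. Fzd9 in iHCs was 7.67, 7.60 and 7.54 with Dox and 7.94, 8.27 and 8.31 with Dox+RA at day 8, and 7.24, 7.71 and 7.84 with Dox and 7.0, 7.28 and 7.55 with Dox+RA at day 12. No control EB array of Fzd9 was above 5.05 and no iHC array was under 7.0. Fzd9 differed from control EBs of the same day by 2.59 and 2.85 with Dox at day 8 and day 12 and by 3.16 and 2.53 with Dox+RA (SE 0.19, adjusted p from 5.4e-09 to 6.1e-08). The difference with Dox+RA at day 8 corresponds to a change of 8.91-fold, from control EB values near 5. At day 12 both control EB arrays were under 5, so no exact fold is given for that day.

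Fzd3 acts with Fzd6 in axon guidance and planar cell polarity. Fzd3 read 6.21 and 6.63 in control EBs of day 8 and 6.71 and 6.69 in those of day 12. Fzd3 in iHCs was 8.68, 8.13 and 7.60 with Dox and 9.04, 8.95 and 8.92 with Dox+RA at day 8, and 8.04, 7.95 and 7.72 with Dox and 8.10, 8.03 and 8.32 with Dox+RA at day 12. Fzd3 was highest in Dox+RA iHCs of day 8, where the 3 arrays ran from 8.92 to 9.04. Fzd3 differed from control EBs of the same day by 1.72 and 1.21 with Dox at day 8 and day 12 and by 2.55 and 1.45 with Dox+RA (SE 0.22, adjusted p from 2.5e-07 to 4.1e-04). Fzd6 had means of 6.07 ± 0.07 and 6.22 ± 0.14 (SD, n = 2) in control EBs of day 8 and day 12, 6.22 ± 0.15 and 6.74 ± 0.22 (n = 3) with Dox, and 6.93 ± 0.10 and 7.22 ± 0.11 (n = 3) with Dox+RA. Fzd6 differed from control EBs of the same day by 0.15 (adjusted p = 0.43, not called) and 0.53 (adjusted p = 0.0039) with Dox at day 8 and day 12 and by 0.85 (adjusted p = 6.7e-05) and 1.0 (adjusted p = 1.2e-05) with Dox+RA (SE 0.13). The Dox difference of Fzd6 at day 12 was 0.43 (adjusted p = 0.061) without control EB day 12 replicate 1.

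Fzd2, a receptor for Wnt5a and other ligands, had the largest fall among the Frizzled receptors at day 12 and, with Dox+RA, at day 8. Fzd2 measured 7.91 and 7.87 in control EBs of day 8 and 8.36 and 8.24 in those of day 12. Fzd2 in iHCs was 6.51, 6.73 and 7.04 with Dox and 5.36, 5.56 and 5.24 with Dox+RA at day 8, and 4.84, 5.87 and 6.30 with Dox and 4.15, 4.46 and 4.85 with Dox+RA at day 12. The group means of Fzd2 stepped down from control EBs to Dox iHCs to Dox+RA iHCs at both days, and at day 12 the Dox arrays spread from 4.84 to 6.30. Fzd2 differed from control EBs of the same day by -1.13 and -2.63 with Dox at day 8 and day 12 and by -2.51 and -3.81 with Dox+RA (SE 0.31, adjusted p from 9.1e-08 to 0.0094). The fall was 2.19-fold with Dox at day 8, and without either control EB array of day 8 its adjusted p was 0.054.

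Fzd1, a close relative of Fzd2 and Fzd7, was low on every iHC array. Fzd1 stood at 6.0 and 5.77 in control EBs of day 8 and 6.70 and 6.70 in those of day 12. Fzd1 in iHCs was 4.58, 4.78 and 4.74 with Dox and 4.87, 4.74 and 4.71 with Dox+RA at day 8, and 4.91, 4.66 and 4.81 with Dox and 4.82, 4.62 and 4.45 with Dox+RA at day 12. Fzd1 differed from control EBs of the same day by -1.18 and -1.90 with Dox at day 8 and day 12 and by -1.11 and -2.07 with Dox+RA (SE 0.12, adjusted p from 3.0e-09 to 2.1e-06). Fzd4, a receptor known from retinal vessels and for its ligand Norrin, followed the same direction. Fzd4 read 7.95 and 7.87 in control EBs of day 8 and 7.77 and 7.63 in those of day 12. Fzd4 in iHCs was 6.18, 6.02 and 6.59 with Dox and 6.42, 6.07 and 6.18 with Dox+RA at day 8, and 6.27, 5.71 and 6.03 with Dox and 6.53, 5.92 and 6.03 with Dox+RA at day 12. No iHC array of either gene reached a control EB array. Fzd4 differed from control EBs of the same day by -1.65 and -1.70 with Dox at day 8 and day 12 and by -1.69 and -1.54 with Dox+RA (SE 0.20, adjusted p from 6.0e-06 to 1.4e-05).

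Fzd7 was lower only where RA had been given together with Dox, by the call, although the difference between Dox and Dox+RA was itself not called at either day without the replicate block. Fzd7 measured 8.95 and 8.73 in control EBs of day 8 and 8.94 and 8.76 in those of day 12. Fzd7 in iHCs was 8.19, 8.35 and 8.55 with Dox and 7.13, 7.45 and 8.35 with Dox+RA at day 8, and 8.21, 8.26 and 8.31 with Dox and 6.93, 7.35 and 8.38 with Dox+RA at day 12. In Dox+RA iHCs replicate 3 stood above the other replicates at both days. Fzd7 differed from control EBs of the same day by -0.48 (adjusted p = 0.34, not called) and -0.59 (adjusted p = 0.21, not called) with Dox at day 8 and day 12 and by -1.20 (adjusted p = 0.011) and -1.30 (adjusted p = 0.0065) with Dox+RA (SE 0.35). Both Fzd7 calls were lost without replicate 1 of the control EBs of that day (adjusted p = 0.079 at day 8 and 0.052 at day 12), and the day 8 call also without Dox+RA day 8 replicate 1 (0.051). Fzd8 differed from control EBs of the same day by -0.87 (adjusted p = 0.075, not called) and -0.89 (adjusted p = 0.06, not called) with Dox at day 8 and day 12 and by -1.01 (adjusted p = 0.033) and -0.98 (adjusted p = 0.036) with Dox+RA (SE 0.36). The Fzd8 calls were lost without either control EB array of the day or without Dox+RA replicate 1 or 2 of the day (adjusted p from 0.063 to 0.19). Fzd5 differed from control EBs of the same day by -0.69 and -0.58 with Dox at day 8 and day 12 and by -0.96 and -0.73 with Dox+RA (SE 0.19, adjusted p from 5.7e-04 to 0.02). Without control EB day 8 replicate 2 the Dox difference of Fzd5 at day 8 was -0.39 (adjusted p = 0.2), in a fit of these groups alone its adjusted p was 0.057, and its Dox call at day 12 was lost without either control EB array of day 12 or Dox day 12 replicate 1 or 2 (adjusted p from 0.061 to 0.088). Fzd10 differed from control EBs of the same day by 0.89 (adjusted p = 0.017) and 0.46 (adjusted p = 0.2, not called) with Dox at day 8 and day 12 and by 0.65 (adjusted p = 0.064, not called) and 0.20 (adjusted p = 0.58, not called) with Dox+RA (SE 0.27). Among the 44 members, only 1 call between groups had overlapping arrays, with no like count given over all genes. It was that of Fzd10 with Dox at day 8 (3.20 and 3.95 against 3.84, 4.76 and 4.79). That call was lost without control EB day 8 replicate 1 (0.51, adjusted p = 0.25) or Dox day 8 replicate 2 (0.068) or 3 (0.066), or in a fit of these groups alone (0.075).

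**Figure D3:**
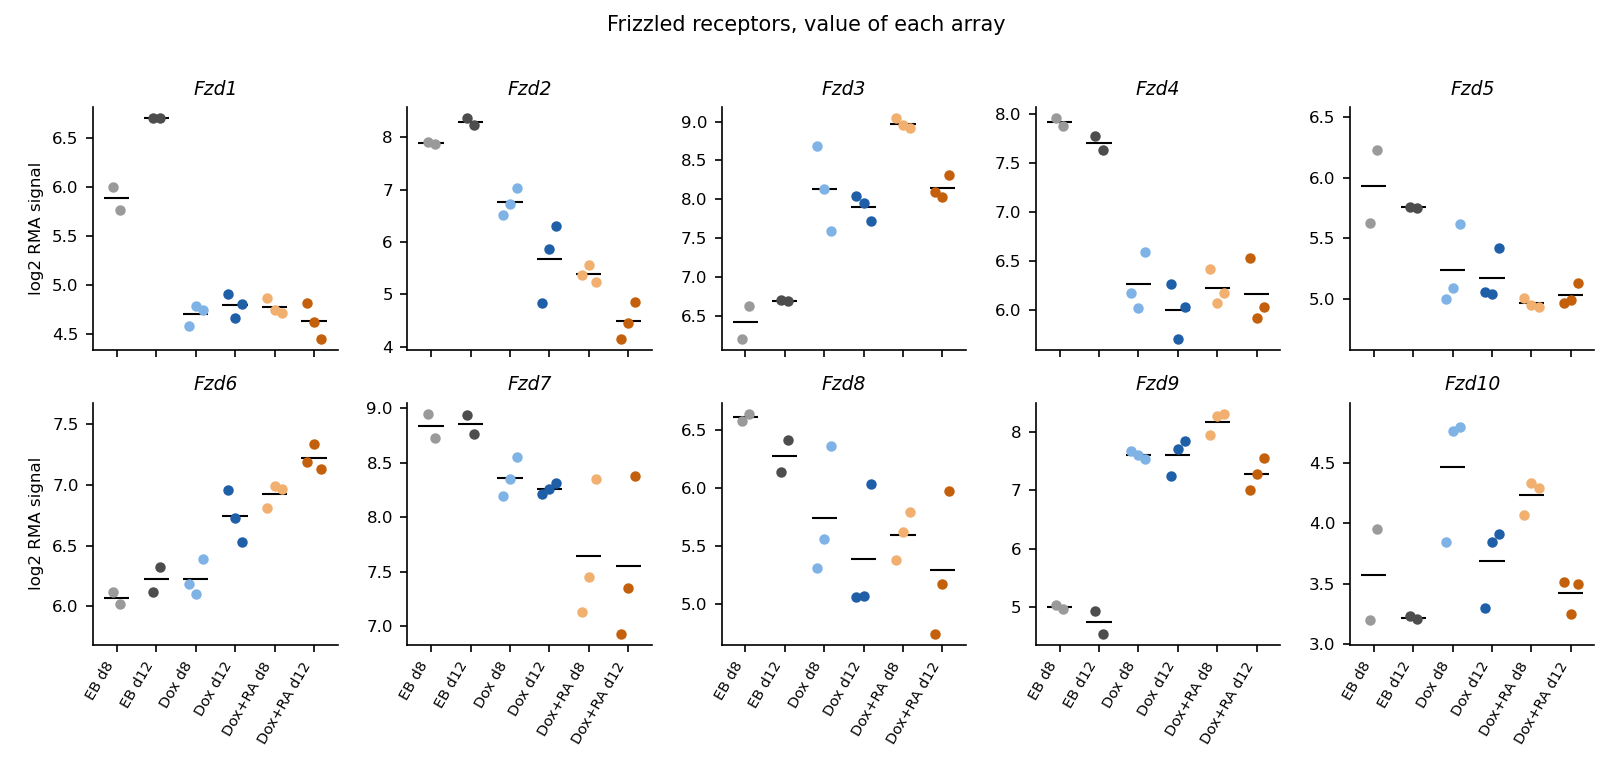
Log2 RMA signal on each array (points) and group mean (line) for Fzd1 to Fzd10 in the 6 groups; each panel has its own axis, which does not start at 0. Fzd3 and Fzd9 lie above the control EBs on all iHC arrays, Fzd1, Fzd2 and Fzd4 below them, and Fzd6 is highest with Dox+RA.

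The R-spondins and their Lgr receptors moved apart: Rspo1, Rspo2, Rspo3 and Lgr4 were lower in iHCs, Lgr6 was higher, and Lgr5 was higher at day 8 with Dox. Rspo3, an R-spondin of mesoderm and vessels, fell most. Rspo3 stood at 7.04 and 7.22 in control EBs of day 8 and 6.74 and 6.54 in those of day 12. Rspo3 in iHCs was 4.43, 4.76 and 5.21 with Dox and 4.44, 4.37 and 4.30 with Dox+RA at day 8, and 4.26, 4.21 and 4.53 with Dox and 4.29, 4.29 and 4.71 with Dox+RA at day 12. The highest iHC array of Rspo3, at 5.21, was below the lowest control EB array, at 6.54. Rspo3 differed from control EBs of the same day by -2.33 and -2.31 with Dox at day 8 and day 12 and by -2.76 and -2.21 with Dox+RA (SE 0.19, adjusted p from 2.3e-08 to 2.0e-07).

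Rspo2 is known from limb and lung development. Rspo2 read 6.19 and 5.54 in control EBs of day 8 and 5.08 and 5.15 in those of day 12. Rspo2 in iHCs was 4.69, 4.45 and 4.55 with Dox and 4.63, 4.54 and 4.67 with Dox+RA at day 8, and 4.52, 4.67 and 4.86 with Dox and 4.49, 4.43 and 4.71 with Dox+RA at day 12. Rspo2 was highest on the control EB arrays of day 8 and nearer to the iHC level on those of day 12. Rspo2 differed from control EBs of the same day by -1.30 and -0.43 with Dox at day 8 and day 12 and by -1.25 and -0.57 with Dox+RA (SE 0.16, adjusted p from 1.1e-05 to 0.042). The Dox call of Rspo2 at day 12 was lost without any 1 of 9 arrays (adjusted p from 0.05 to 0.19), when quantile normalized again (0.057) and under median centring (0.07), and the Dox+RA call of day 12 without control EB day 12 replicate 2 (0.062). Rspo1 differed from control EBs of the same day by -0.60 and -0.99 with Dox at day 8 and day 12 and by -0.55 and -0.72 with Dox+RA (SE 0.18, adjusted p from 3.3e-04 to 0.022). Without control EB day 8 replicate 1, the Rspo1 difference at day 8 was -0.53 with Dox (adjusted p = 0.11) and -0.48 with Dox+RA (adjusted p = 0.13), and the latter call was also lost without control EB day 8 replicate 2 (0.058) or Dox+RA day 8 replicate 1 (0.06) or 2 (0.088). The Dox+RA difference of Rspo1 at day 12 was -0.49 (adjusted p = 0.091) without control EB day 12 replicate 2.

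Lgr4 is the most widely expressed receptor of the R-spondins. Lgr4 measured 8.88 and 8.84 in control EBs of day 8 and 8.99 and 9.01 in those of day 12. Lgr4 in iHCs was 7.69, 7.52 and 7.67 with Dox and 8.08, 7.70 and 7.29 with Dox+RA at day 8, and 7.41, 7.34 and 7.74 with Dox and 7.36, 7.28 and 7.43 with Dox+RA at day 12. All iHC arrays of Lgr4 were below all control EB arrays. Lgr4 differed from control EBs of the same day by -1.23 and -1.5 with Dox at day 8 and day 12 and by -1.17 and -1.64 with Dox+RA (SE 0.17, adjusted p from 1.5e-06 to 5.3e-05). Lgr6, whose promoter holds the E-box match printed above, marks stem cells of the hair follicle and a subset of cochlear supporting cells. Lgr6 stood at 4.91 and 4.90 in control EBs of day 8 and 5.16 and 4.78 in those of day 12. Lgr6 in iHCs was 6.52, 6.63 and 6.24 with Dox and 6.61, 6.44 and 6.21 with Dox+RA at day 8, and 7.21, 7.30 and 6.76 with Dox and 6.73, 6.80 and 6.48 with Dox+RA at day 12. Lgr6 was above the control EBs on every iHC array and highest with Dox at day 12. Lgr6 differed from control EBs of the same day by 1.56 and 2.12 with Dox at day 8 and day 12 and by 1.52 and 1.70 with Dox+RA (SE 0.18, adjusted p from 1.5e-07 to 5.7e-06).

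Lgr5 is both an R-spondin receptor and a target of beta-catenin. Lgr5 read 5.15 and 6.23 in control EBs of day 8 and 5.90 and 5.49 in those of day 12. Lgr5 in iHCs was 6.80, 7.91 and 8.28 with Dox and 5.53, 6.84 and 6.93 with Dox+RA at day 8, and 4.48, 5.43 and 6.09 with Dox and 4.49, 4.79 and 5.07 with Dox+RA at day 12. The 3 Dox arrays of day 8 lay above both control EB arrays, while those of day 12 straddled them. Lgr5 differed from control EBs of the same day by 1.97 (adjusted p = 0.0073) and -0.36 (adjusted p = 0.63, not called) with Dox at day 8 and day 12 and by 0.74 (adjusted p = 0.28, not called) and -0.91 (adjusted p = 0.17, not called) with Dox+RA (SE 0.52). Lgr5 therefore passed the test only with Dox at day 8, and without control EB day 8 replicate 1, the lower control, that difference was 1.43 (adjusted p = 0.11). Its second entry in the table, with values from 4.22 to 4.79, showed little signal, and the mean of both entries gave 1.13 (adjusted p = 0.0068).

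Among the secreted antagonists, Sfrp1 had the largest fall of the family in each contrast with control EBs, and Sfrp4, Sfrp5 and Dkk4 were not called. Sfrp1 binds Wnts and Frizzled receptors outside the cell. Sfrp1 measured 10.10 and 9.71 in control EBs of day 8 and 10.38 and 10.34 in those of day 12. Sfrp1 in iHCs was 5.15, 5.84 and 7.01 with Dox and 5.94, 5.79 and 5.94 with Dox+RA at day 8, and 5.41, 5.58 and 6.35 with Dox and 6.07, 5.63 and 5.67 with Dox+RA at day 12. No iHC array of Sfrp1 was above 7.01, the value of Dox day 8 replicate 3, and no control EB array was below 9.71. Sfrp1 differed from control EBs of the same day by -3.90 and -4.58 with Dox at day 8 and day 12 and by -4.01 and -4.57 with Dox+RA (SE 0.38, adjusted p from 1.4e-07 to 1.4e-06). The falls were 14.9-fold and 23.9-fold with Dox and 16.1-fold and 23.8-fold with Dox+RA.

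Sfrp2 belongs with Sfrp1 and Sfrp5 to one subgroup of the Sfrp proteins. Sfrp2 stood at 7.46 and 6.81 in control EBs of day 8 and 8.70 and 8.15 in those of day 12. Sfrp2 in iHCs was 4.45, 4.65 and 4.96 with Dox and 4.88, 4.72 and 4.55 with Dox+RA at day 8, and 3.99, 4.28 and 4.67 with Dox and 4.21, 4.37 and 4.42 with Dox+RA at day 12. Control EBs had more Sfrp2 signal at day 12 than at day 8, and iHCs had low signal at both days. Sfrp2 differed from control EBs of the same day by -2.44 and -4.11 with Dox at day 8 and day 12 and by -2.42 and -4.09 with Dox+RA (SE 0.23, adjusted p from 1.9e-09 to 7.4e-07). At day 12 the iHC arrays of Sfrp2 were all under 5, where no exact fold is given. The second Sfrp2 entry ran only from 4.04 to 4.74, and with the mean of both entries the differences were -1.23 and -2.21 with Dox and -1.30 and -2.23 with Dox+RA, all still called.

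Dkk1 blocks the Lrp5 and Lrp6 coreceptors and is induced by beta-catenin in many tissues. Its promoter above holds CTTTGA and its reverse complement. Dkk1 read 7.24 and 7.26 in control EBs of day 8 and 7.12 and 6.97 in those of day 12. Dkk1 in iHCs was 5.24, 5.24 and 5.69 with Dox and 4.83, 5.09 and 5.47 with Dox+RA at day 8, and 5.14, 5.15 and 5.50 with Dox and 5.18, 4.86 and 5.35 with Dox+RA at day 12. Dkk1 was between 6.97 and 7.26 on control EB arrays and never above 5.69 on iHC arrays. Dkk1 differed from control EBs of the same day by -1.86 and -1.78 with Dox at day 8 and day 12 and by -2.12 and -1.91 with Dox+RA (SE 0.19, adjusted p from 3.7e-07 to 2.3e-06). Dkk2, which binds the same coreceptors, had larger falls at day 12. Dkk2 measured 7.58 and 6.60 in control EBs of day 8 and 7.94 and 7.56 in those of day 12. Dkk2 in iHCs was 4.66, 4.79 and 4.75 with Dox and 4.99, 4.95 and 4.94 with Dox+RA at day 8, and 4.58, 4.56 and 4.54 with Dox and 4.66, 4.82 and 4.68 with Dox+RA at day 12. The iHC arrays of Dkk2 spanned only 4.54 to 4.99. Dkk2 differed from control EBs of the same day by -2.36 and -3.19 with Dox at day 8 and day 12 and by -2.13 and -3.03 with Dox+RA (SE 0.20, adjusted p from 7.0e-09 to 4.5e-07).

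Dkk3, a more distant member that does not act on the Lrp coreceptors as Dkk1 does, fell by less. Dkk3 stood at 6.86 and 6.31 in control EBs of day 8 and 6.86 and 7.07 in those of day 12. Dkk3 in iHCs was 5.68, 6.0 and 6.17 with Dox and 5.71, 5.95 and 6.11 with Dox+RA at day 8, and 5.93, 5.75 and 5.82 with Dox and 5.76, 5.70 and 5.93 with Dox+RA at day 12. The iHC arrays of Dkk3 lay below the control EB arrays of the same day, while the Dox and Dox+RA arrays overlapped. Dkk3 differed from control EBs of the same day by -0.64 and -1.13 with Dox at day 8 and day 12 and by -0.67 and -1.17 with Dox+RA (SE 0.17, adjusted p from 4.1e-05 to 0.0082). At day 8 the Dkk3 differences were -0.36 with Dox (adjusted p = 0.17) and -0.39 with Dox+RA (adjusted p = 0.12) without control EB day 8 replicate 1.

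**Figure D4:**
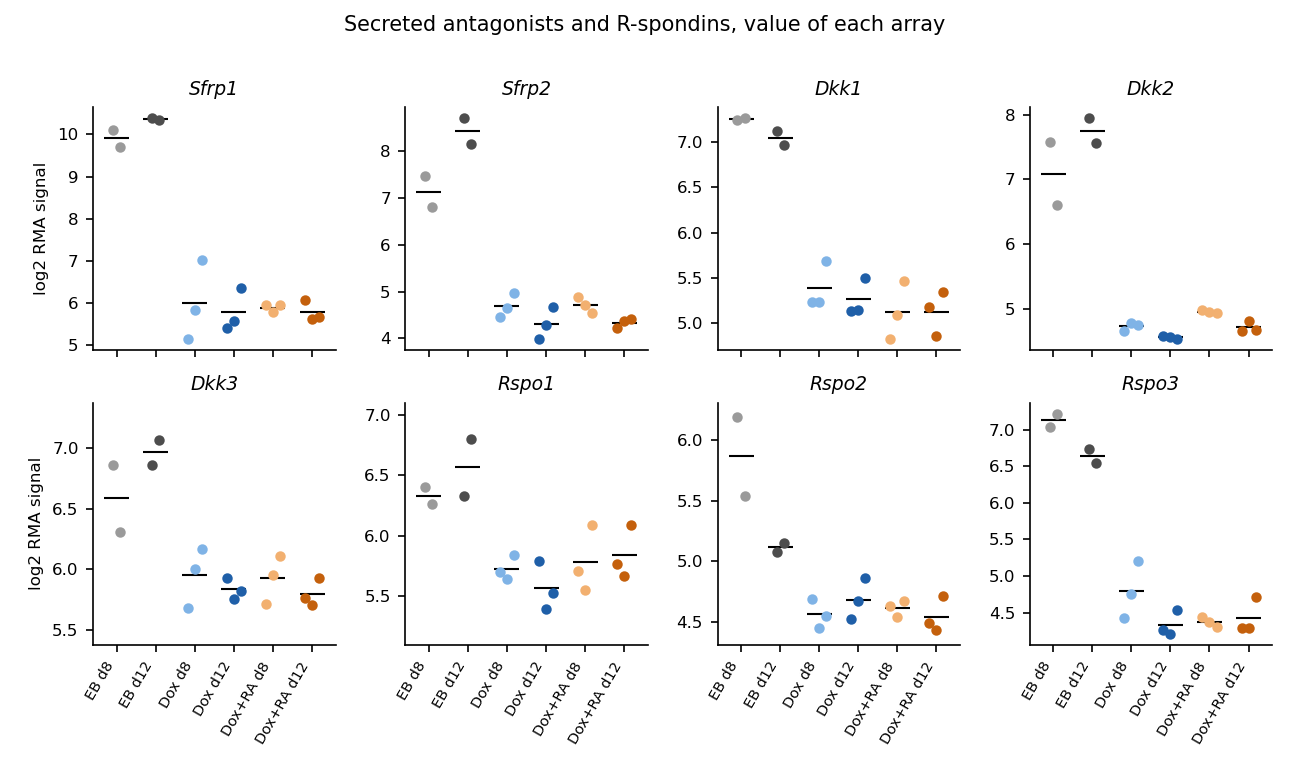
Log2 RMA signal on each array (points) and group mean (line) for Sfrp1, Sfrp2, Dkk1 to Dkk3 and Rspo1 to Rspo3 in the 6 groups; each panel has its own axis, which does not start at 0. In all 8 panels the iHC arrays lie below the control EB arrays of the same day.

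In whole cell populations, fewer cells of a type and less RNA per cell cannot be told apart. The members that were lower in iHCs moved in the same direction as the mesenchyme and neural crest list, of which 15 of 19 markers were lower and 1 higher with Dox at day 8. The mesoderm and cardiac list had 8 of 11 markers lower and 2 higher in that contrast, the endoderm list 5 of 11 lower, the blood and endothelium list 11 of 12 lower, and the cell cycle list 14 of 14 lower. A pluripotency list had 5 of 10 markers lower and 1 higher. The members that were higher moved in the same direction as the hair cell list, of which 13 of 15 markers were higher in that contrast. The neural progenitor and neuron list had 6 of 10 higher there, but 4 higher and 2 lower with Dox at day 12. With Dox+RA it had 4 of 10 higher at day 8, and 2 higher and 2 lower at day 12. The mesenchyme list had means of 4.89, 4.86 and 4.90 on the Dox+RA arrays of day 8. On those of day 12 they were 5.03, 4.89 and 5.08. Replicate 3 had the highest mean of this list in 4 of 4 iHC groups, but only narrowly with Dox+RA. The endoderm and pluripotency lists were also highest in replicate 3 in all 4 iHC groups, and the blood and endothelium list in none of them. For the endoderm list the Dox arrays of day 8 read 5.28, 5.51 and 6.04. Replicate 3 was also the highest of the 3 arrays for 12 of the 18 members lower with Dox at day 8, 11 of 19 with Dox at day 12, 9 of 20 with Dox+RA at day 8 and 15 of 19 with Dox+RA at day 12, a count made after the values were seen. The like share over all genes is not given here. With Dox+RA at day 8, replicate 1 was the highest for 10 of the 20. The part of these marker levels in the differences of the members was not tested.

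The next comparison asks what RA added to Dox. At day 8, Dox+RA iHCs had 2 members higher than Dox iHCs, Fzd3 and Fzd6, and 2 lower, Fzd2 and Wnt10a, which is 9.09% of the 44 members beside 4.93% of all genes. Fzd6 differed by 0.70 ± 0.12 (adjusted p = 0.0036) and Fzd3 by 0.84 ± 0.20 (adjusted p = 0.026). Fzd2 differed by -1.37 ± 0.28 (adjusted p = 0.011) and Wnt10a by -0.95 ± 0.24 (adjusted p = 0.032). In each of the 4 genes the 3 arrays with RA lay apart from the 3 without. Fzd6 kept its call without any single array. The call of Fzd2 was lost without Dox day 8 replicate 2 (adjusted p = 0.051) or 3 (0.059), that of Fzd3 without Dox day 8 replicate 2 or 3 or any Dox+RA array of day 8 (from 0.056 to 0.1), and that of Wnt10a without those same 5 arrays (from 0.051 to 0.16). Fzd3 was also lost in a fit of these groups alone (0.09). In the same contrast 8 of 14 cell cycle markers were lower (median -0.96) and 6 of 15 hair cell markers were higher (median 0.51), and their part in the differences of the members was not tested.

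With the replicate number as a block, which removes differences shared by iHC arrays of equal number, 9 members were called for RA at day 8. The 5 added were Lgr5 at -1.23 (adjusted p = 0.0076), Fzd7 at -0.72 (adjusted p = 0.045), Wnt5a at -0.68 (adjusted p = 0.0038), Fzd9 at 0.57 (adjusted p = 0.027) and Wnt1 at 0.34 (adjusted p = 0.042). For Lgr5 the Dox arrays of day 8, 6.80, 7.91 and 8.28, overlapped with the Dox+RA arrays, 5.53, 6.84 and 6.93, but each same-numbered pair was lower with RA. The share of all genes called with the block is not given here. The blocked counts of members, here and below, therefore do not set the family apart.

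At day 12 limma called 0 of the 44 members between Dox+RA and Dox iHCs, beside 0.924% of all genes, with 9 members at an unadjusted p under 0.05. Differences ranged from -1.19 (Fzd2, SE 0.28, adjusted p = 0.06) to 0.48 (Fzd6), and SEs reached 0.46. With the replicate block 3 members were called: Fzd2 at -1.19 (adjusted p = 0.011), Fzd6 at 0.48 (adjusted p = 0.047) and Lgr6 at -0.42 (adjusted p = 0.036). Fzd2 was also called without Dox day 12 replicate 1 (-1.60, adjusted p = 9.3e-04) or Dox+RA day 12 replicate 3 (-1.37, adjusted p = 0.036). A test of whether the RA difference itself changed from day 8 to day 12 called 0 members in limma, with 3 at an unadjusted p under 0.05, beside 0.00902% of all genes.

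Time within each treatment was compared next. In Dox iHCs, Lgr5 and Fzd2 fell and Lgr6 and Fzd6 rose from day 8 to day 12, which is 9.09% of the members beside 8.05% of all genes. Lgr5 changed by -2.33 ± 0.46 (adjusted p = 0.0077), and its highest array of day 12, 6.09, was below its lowest of day 8, 6.80. Fzd2 changed by -1.09 ± 0.28 (adjusted p = 0.027), Lgr6 by 0.63 ± 0.16 (adjusted p = 0.026) and Fzd6 by 0.52 ± 0.12 (adjusted p = 0.014). All 4 calls were lost in a fit of these groups alone, with an adjusted p of 0.052 for Lgr5, 0.13 for Fzd2, 0.093 for Lgr6 and 0.09 for Fzd6. The call of Lgr5 was kept without any single array. Fzd2 was lost without Dox day 12 replicate 1 (-0.67, adjusted p = 0.088) or 2 (0.05) or Dox day 8 replicate 2 (0.083) or 3 (0.12), Lgr6 without Dox day 12 replicate 1 (0.11) or 2 (0.11) or Dox day 8 replicate 3 (0.12), and Fzd6 without Dox day 12 replicate 1 (0.08) or Dox day 8 replicate 2 (0.075). With the replicate block 7 members were called, the added ones being Fzd10 at -0.78 (adjusted p = 0.012), Rspo3 at -0.47 (adjusted p = 0.033) and Wnt5a at -0.45 (adjusted p = 0.032). Over the same days 12 of 14 cell cycle markers (median -1.05) and 4 of 10 neural progenitor and neuron markers (median -0.48) were lower in Dox iHCs, and their part was not tested.

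In Dox+RA iHCs, Wnt10a rose and Fzd9 and Fzd3 fell over the same days, 6.82% of the members beside 4.38% of all genes. Wnt10a changed by 1.06 ± 0.24 (adjusted p = 0.021), Fzd9 by -0.90 ± 0.17 (adjusted p = 0.0083) and Fzd3 by -0.82 ± 0.20 (adjusted p = 0.032). The arrays of the 2 days did not overlap in any of the 3 genes, and Fzd9 kept its call without any single array. Wnt10a was lost without Dox+RA day 12 replicate 2 (0.085) or 3 (0.063) or Dox+RA day 8 replicate 1 (0.067) or 2 (0.071), and Fzd3 without Dox+RA day 12 replicate 1 (0.1) or 2 (0.13) or any Dox+RA array of day 8 (from 0.073 to 0.098). The replicate block gave 7 calls, with Lgr5 at -1.65 (adjusted p = 0.0016), Fzd2 at -0.90 (adjusted p = 0.022), Fzd10 at -0.81 (adjusted p = 0.015) and Rspo4 at 0.40 (adjusted p = 0.044) added. Of the cell cycle markers 4 of 14 were lower over these days (median -0.55), and their part was not tested.

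In control EBs 5 members changed between the days, 11.4% beside 3.75% of all genes: Sfrp2, Fzd1 and Wnt11 rose and Wnt2 and Rspo2 fell. Sfrp2 changed by 1.29 ± 0.25 (adjusted p = 0.0069), Fzd1 by 0.81 ± 0.13 (adjusted p = 0.0019), Wnt11 by 0.40 ± 0.10 (adjusted p = 0.044), Wnt2 by -0.92 ± 0.20 (adjusted p = 0.016) and Rspo2 by -0.75 ± 0.17 (adjusted p = 0.024). With 2 arrays at each day these calls rest on few values, and only that of Fzd1 was kept without any single array. Sfrp2 was 1.02 without control EB day 12 replicate 1 (adjusted p = 0.13) and 0.97 without control EB day 8 replicate 2 (adjusted p = 0.14). Wnt2 was -0.58 without control EB day 12 replicate 1 (adjusted p = 0.25) and -0.76 without control EB day 8 replicate 1 (adjusted p = 0.11). Rspo2 was lost without either control EB array of day 12 (0.19 and 0.089) or control EB day 8 replicate 1 (-0.43, adjusted p = 0.18), and Wnt11 without any 1 of 13 arrays (from 0.051 to 0.41). A fit of these groups alone ended the calls of Wnt2 (0.1), Wnt11 (0.19) and Rspo2 (0.13), and median centring that of Wnt11 (0.063). In control EBs 6 of 12 blood and endothelium markers were lower at day 12 (median -0.97) and 4 of 19 mesenchyme and neural crest markers were higher (median 0.24), and their part was not tested.

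Whether the change over time differed between iHCs and control EBs was tested as an interaction. For Dox iHCs 2 members were called beside 2.84% of all genes, Sfrp2 at -1.67 ± 0.32 (adjusted p = 0.011) and Fzd1 at -0.72 ± 0.17 (adjusted p = 0.033). For Dox+RA iHCs 3 were called beside 2.62% of all genes, Sfrp2 at -1.67 ± 0.32 (adjusted p = 0.01), Fzd1 at -0.96 ± 0.17 (adjusted p = 0.0059) and Wnt2 at 1.04 ± 0.26 (adjusted p = 0.043). Sfrp2 and Fzd1 rose from day 8 to day 12 in control EBs and were not called over time in either kind of iHC, and Wnt2 fell in control EBs alone by the call. In iHCs the group means of Sfrp2, Fzd1 and Wnt2 were under 5 at both days, where RMA compresses changes. Leaving out control EB day 12 replicate 1 or control EB day 8 replicate 2 ended both Sfrp2 calls (adjusted p from 0.073 to 0.077), the Wnt2 call was lost without any 1 of 13 arrays (from 0.05 to 0.23) and the Dox call of Fzd1 without any 1 of 6 (from 0.07 to 0.16). In a fit of these groups alone the Wnt2 call (0.063) and the Dox call of Fzd1 (0.055) were lost, the latter also under median centring (0.061). With the replicate block 7 and 6 members were called, among them Lgr5 at -2.33 (adjusted p = 0.0043) and -1.65 (adjusted p = 0.033). Lgr5 was called in neither interaction without the block. The block also takes control EB arrays to pair by number with iHC arrays, which was not established. Only 7 of 18 same-numbered pairs of a control EB with another group correlated above 0.1.

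The other genes of the pathway were read from 5 lists. The coreceptors and secretion genes were mostly lower in iHCs: of 17 measured, 9 were lower and 2 higher with Dox at day 8, 12 and 1 at day 12, 12 and 1 with Dox+RA at day 8, and 11 and 1 at day 12. In the same order 64.7%, 76.5%, 76.5% and 70.6% of the list were called, beside 34.6%, 40.8%, 41.6% and 44.8% of all genes. Wls, the carrier that brings Wnts to the cell surface, read 8.76 and 8.76 in control EBs of day 8 and 8.73 and 8.82 at day 12. Wls in iHCs was 7.16, 7.72 and 7.60 with Dox and 6.25, 6.29 and 6.47 with Dox+RA at day 8, and 5.47, 6.12 and 6.69 with Dox and 5.62, 5.71 and 5.76 with Dox+RA at day 12. Wls was thus below every control EB array on each iHC array, with differences at day 12 of -2.68 ± 0.25 for Dox (adjusted p = 4.1e-07) and -3.08 ± 0.25 for Dox+RA (adjusted p = 8.0e-08). It was also lower with Dox+RA than with Dox at day 8, by -1.15 ± 0.22 (adjusted p = 0.0083). Ror1, a receptor for Wnt5a, differed by -2.79 and -3.73 with Dox and -3.29 and -3.80 with Dox+RA at the 2 days (SE 0.20). Reck, which with Adgra2 serves Wnt7 signalling in vessels, differed by -1.95 with Dox and -2.59 with Dox+RA at day 8 (SE 0.13). Ptk7, a planar polarity receptor, went the other way at day 8, by 0.99 ± 0.10 with Dox (adjusted p = 1.4e-06).

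Further inhibitors, 15 measured of 16 listed, showed 2 higher and 4 lower with Dox and 2 higher and 4 lower with Dox+RA at day 8, and 3 higher and 6 lower and 3 higher and 5 lower at day 12. At day 8 40.0% of the list were called with Dox and 40.0% with Dox+RA, near the 34.6% and 41.6% of all genes. At day 12 the shares were 60.0% and 53.3%, beside 40.8% and 44.8% of all genes. Draxin, an axon guidance protein that can bind Lrp coreceptors, was higher by 2.96 and 3.43 with Dox and 2.84 and 3.18 with Dox+RA (SE 0.16). Apcdd1, a membrane inhibitor, was higher by 2.39 ± 0.48 with Dox at day 8 (adjusted p = 0.001). Igfbp4, a secreted binding protein, was lower by -2.23 and -3.43 with Dox and -2.44 and -3.13 with Dox+RA (SE 0.21). The ubiquitin ligase genes Znrf3 and Rnf43, which R-spondins counter, were lower with Dox at day 8, by -0.85 ± 0.18 (adjusted p = 0.0013) and -0.61 ± 0.11 (adjusted p = 5.9e-04). Frzb, a relative of the Sfrps outside the symbol pattern, was the one gene of this list that differed between Dox+RA and Dox at day 12. Frzb stood at 8.14, 8.24 and 6.89 with Dox+RA and 5.71, 5.16 and 5.62 with Dox, a difference of 2.26 ± 0.30 (adjusted p = 0.0022). Notum, an enzyme that removes the lipid of Wnts, rose over time in Dox+RA iHCs from 4.81, 4.65 and 4.66 to 6.17, 6.22 and 5.32, by 1.20 ± 0.18 (adjusted p = 0.0018).

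Intracellular transducers, 26 measured of 28, were called in both directions: 9 higher and 9 lower with Dox at day 8, 9 and 9 at day 12, and 8 higher and 10 lower, then 7 and 11, with Dox+RA. That is 69.2% of the list in each contrast, beside 34.6%, 40.8%, 41.6% and 44.8% of all genes. Tcf7l1, the TCF factor best known as a repressor, differed by -2.75 and -3.66 with Dox and -3.30 and -3.68 with Dox+RA (SE 0.28). Tcf7l2 differed by -2.39 and -3.01 with Dox and -2.96 and -3.06 with Dox+RA (SE 0.21). Lef1, of the same factor family, was at -1.26 ± 0.29 with Dox (adjusted p = 0.0033) and -2.30 ± 0.29 with Dox+RA (adjusted p = 1.3e-05) at day 8. Ctnnbip1, which keeps beta-catenin from TCF factors, was higher by 1.60 with Dox and 1.64 with Dox+RA at day 8 (SE 0.11), and the corepressor Tle2 by 1.21 and 1.44 (SE 0.16). Dvl3, an adaptor below Frizzled, was higher by 0.78 with Dox and 0.73 with Dox+RA at day 8 (SE 0.10).

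Of the genes often read as targets of beta-catenin, 32 measured of 35, Dkk1 and Lgr5 among them, 13 were lower and 5 higher with Dox at day 8 and 17 and 6 at day 12. With Dox+RA 15 were lower and 2 higher at day 8 and 16 and 5 at day 12. The shares called were 56.2% and 71.9% with Dox and 53.1% and 65.6% with Dox+RA. Of all genes 34.6% and 40.8% were called with Dox and 41.6% and 44.8% with Dox+RA. Bmp4, a growth factor with many other inputs, fell most at day 8, by -3.52 ± 0.24 with Dox and -4.32 ± 0.24 with Dox+RA, and Nrcam, an adhesion protein of neurons, rose by 2.44 ± 0.28 and 3.05 ± 0.28. With Dox at day 8 Twist1 differed by -1.94 ± 0.18 (adjusted p = 6.4e-07). Among the 5 genes higher in that contrast, beside Nrcam, were Vegfa at 1.41 ± 0.14 (adjusted p = 2.1e-06) and Nkd1 at 0.69 ± 0.25 (adjusted p = 0.042). Several of the genes that moved, such as Bmp4, Twist1 and Msx2, are also genes of mesenchyme, and Myc and Ccnd1 are genes of growing cells. The part of these other roles in the differences was not tested. Axin2, the target most used as a readout and named here after its values were seen, was not called in any contrast: it differed from control EBs by 0.32 and 0.23 with Dox and 0.00 and 0.10 with Dox+RA (SE 0.21, adjusted p from 0.28 to 0.99). Over time in Dox iHCs Myc fell, by -1.60 ± 0.25 (adjusted p = 0.0025), and so did Ccnd1, by -1.10 ± 0.21 (adjusted p = 0.0058).

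Planar cell polarity genes, 19 measured of 20, had somewhat more members higher than lower in each contrast with control EBs: 8 and 5 with Dox at day 8, 9 and 6 at day 12, 8 and 6 with Dox+RA at day 8, and 9 and 8 at day 12. In the same order 68.4%, 78.9%, 73.7% and 89.5% of the list were called, beside 34.6%, 40.8%, 41.6% and 44.8% of all genes. Both the share higher and the share lower stood above those of all genes in each contrast. Celsr1, a large cadherin at the borders of polarised cells, read 5.51, 5.79, 5.75 and 5.53 on the 4 control EB arrays and from 8.19 to 9.08 on the iHC arrays. Celsr1 differed by 2.61 and 2.86 with Dox and 3.0 and 3.28 with Dox+RA (SE 0.12). Celsr3, known from axon tracts, differed by 2.76 and 3.61 with Dox and 3.53 and 3.95 with Dox+RA (SE 0.20). Fat4, a cadherin of the Fat and Dachsous pair, went down by -2.47 and -3.61 with Dox and -2.95 and -3.39 with Dox+RA (SE 0.15), and its partner Dchs1 was lower as well, by -0.70 ± 0.14 with Dox at day 8 (adjusted p = 9.3e-04).

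**Figure D5:**
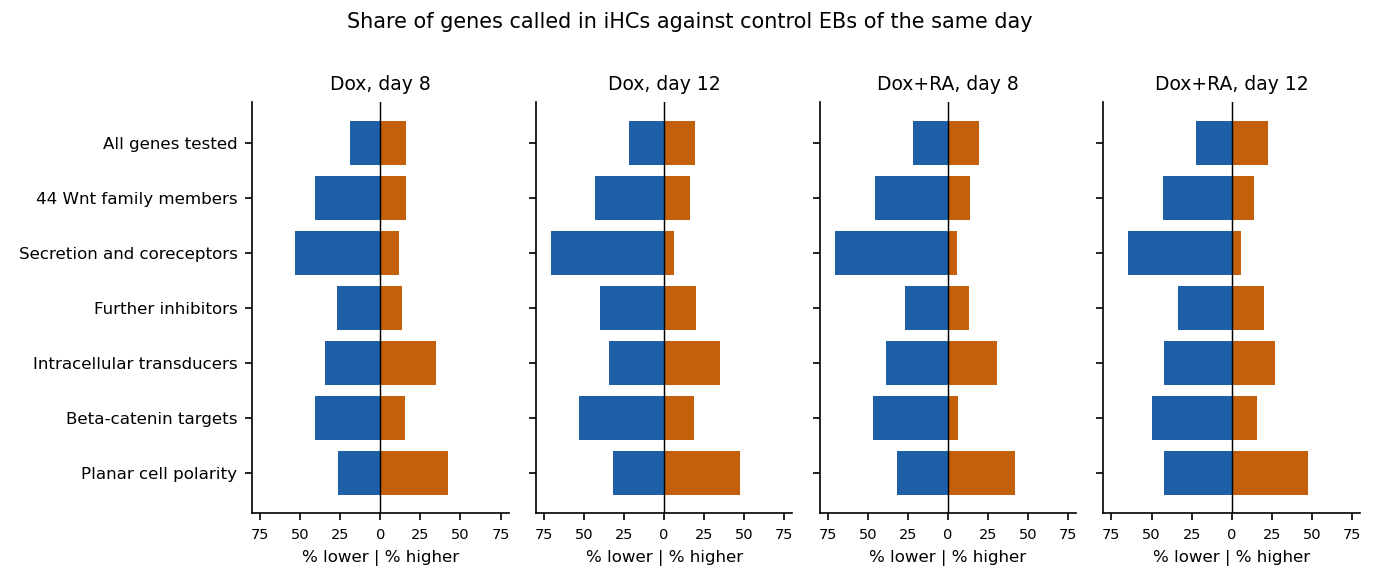
Share of genes called higher (orange, to the right) and lower (blue, to the left) in iHCs against control EBs of the same day, in percent of the genes measured, for all 22180 genes, the 44 members and 5 pathway lists. The members, the secretion and coreceptor list and the beta-catenin target list lean to lower, and the further inhibitors have more genes lower than higher as well. The planar cell polarity list has larger shares than all genes in both directions, and somewhat more genes higher than lower.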

How the data were processed

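RNA of 16 samples was hybridised to 1 array each. The deposited values are log2 signals; per the submitters' processing notes the authors ran RMA in Affymetrix Expression Console (no version given). They ran from 1.44 to 12.3 with 0 missing, and were used as deposited. The strip, scan date or other batch of an array is not given in the sources used here. RMA compresses changes at low signal. Of 33708 entries, 23521 carry 1 symbol. For 1082 genes with several entries that with the highest mean was kept, leaving 22180 genes. All were fitted with a mean for each of 6 groups in limma 3.58.1 (R 4.3.3; 10 residual degrees of freedom), with 9 differences between groups and 3 interactions, and the fit was tested on simulated data. Tables came from pandas 2.3.3 in Python 3.11.15, figures from matplotlib 3.10.9.

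The members and lists were chosen with earlier results of these data known. Array values are given for members called with a change of 2-fold or more (up to 6 per role by size), differences for other called members, ranges for the rest, and up to 4 called genes in each direction per list and contrast, of which the text gives a part. Each list is described by counts, with no test. The submitters call the replicates biological; the p-values measure the spread between these arrays. After group means were removed, all 18 pairs of same-numbered iHC arrays correlated above 0.1 (0.147 to 0.513), so the numbers were taken to pair iHC arrays, and blocked values stand beside those comparisons. Of 18 such pairs of a control EB with another group, 7 did. Alternatives were each array left out in turn, the replicate block, only the groups compared, quantile normalization again, median centring, genes under 5 in all groups left out, the mean of a gene's entries, a trended robust fit, all entries of the table, and array weights. Promoters came from RefSeq (GRCm38.p6). The number of arrays limits the precision.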

Additional observations from a re-analysis of the deposited data

Results flagged for a closer look

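The members Sfrp2, Fzd1 and Wnt2 changed over time in a way that differed between iHCs and control EBs by the interaction term of limma. The iHC group means of these genes were under 5 at both days, where RMA compresses changes. For Sfrp2 the change from day 8 to day 12 was smaller in Dox iHCs than in control EBs by -1.67 ± 0.32 (adjusted p = 0.011), and in Dox+RA iHCs by -1.67 ± 0.32 (adjusted p = 0.01). Leaving out control EB day 12 replicate 1 or control EB day 8 replicate 2 ended both calls (adjusted p from 0.073 to 0.077). For Fzd1 the term was -0.72 in Dox iHCs (adjusted p = 0.033) and -0.96 in Dox+RA iHCs (adjusted p = 0.0059). The first Fzd1 call was lost without any 1 of 6 arrays: either control EB of day 12 (0.12 and 0.097), control EB day 8 replicate 2 (0.16), Dox day 12 replicate 2 (0.077) or Dox day 8 replicate 2 (0.081) or 3 (0.07). The second was kept without any single array. For Wnt2 in Dox+RA iHCs the term was 1.04 ± 0.26 (adjusted p = 0.043), and it was lost without any 1 of 13 arrays (adjusted p from 0.05 to 0.23), the largest change being 0.70 without control EB day 12 replicate 1. The interaction terms of Dox and Dox+RA share the 4 control EB arrays.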

How the results depend on the processing

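Of 123 calls of members over the 12 contrasts, 79 were kept under every alternative that tested them (25, or 24 for members too dim for the stricter filter), and no called difference changed sign. Counts of members called in iHCs against control EBs ranged, with 1 array left out, from 21 to 26 and 21 to 28 for Dox at day 8 and day 12, and from 20 to 27 and 20 to 27 for Dox+RA; the other alternatives stayed within 1.5 times of 25, 26, 26 and 25. The smaller counts moved more. With the replicate block the counts were 9 for RA at day 8 (4 without it), 3 for RA at day 12 (0), 7 for time in Dox iHCs (4), 7 for time in Dox+RA iHCs (3), and 7 and 6 for the interactions of Dox and Dox+RA with time (2 and 3); it moved no other count of members by over 1.5 times. With array weights they were 7, 3, 7, 7, 5 and 6 in that order. Shares of all genes called with the block or the weights are not given here, so these larger counts do not set the family apart. A fit of only the groups compared gave 0 for time in Dox iHCs, 6 for time in Dox+RA iHCs, 2 for time in control EBs (5) and 1 and 5 for the interactions. Median centring gave 1 for RA at day 12. Without 1 array the ranges were 1 to 7 for RA at day 8, 0 to 3 for RA at day 12, 1 to 6 and 1 to 5 for time in Dox and Dox+RA iHCs, 1 to 5 for control EBs, and 0 to 5 and 1 to 4 for the interactions. Lone arrays left in a control group were assumed to vary like the other groups. Genes near 5 or below, most Wnt ligands among them, are where RMA signal limits what could be seen.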
